A study of Homo sapiens with 6 samples.

Results

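The proteasome genes of HEK293T cells were examined in queuine-depleted and queuine-supplemented cultures. HEK293T is an established human embryonic kidney line. The set held every protein-coding gene whose symbol is PSM, a letter from A to G and a number, leaving out the immunoproteasome genes PSMB8, PSMB9 and PSMB10. It took 45 of the 63086 genes in the table: 16 genes of the core, 17 of the cap, 7 for assembly, and 5 that encode other activators or the inhibitor PSMF1. Queuine-depleted cells (0Q, 3 libraries) were kept in medium with dialyzed serum. Supplemented cells (100Q, 3 libraries) were the same depleted cells given queuine, at 100 nM by the sample characteristics and at 1 µM for 24 hours by the treatment protocol, so the dose cannot be settled here. All groups are 1 cell line, and nothing states that the 3 libraries of a group came from different cultures. The p-values then reflect no more than how far these libraries vary, possibly for technical reasons.

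The proteasome degrades proteins that carry ubiquitin chains. Its core is a barrel of stacked rings, with outer rings of alpha subunits that gate the channel and inner rings of beta subunits that hold the cutting sites. The cap recognises ubiquitin, unfolds the substrate with a ring of ATPases and removes the ubiquitin with a lid. Dedicated chaperones guide the assembly of both. Queuine is inserted as queuosine into the tRNAs that read the codons of tyrosine, histidine, asparagine and aspartate, which end in C or T, so the coding sequence of a gene states how much its translation draws on these tRNAs.

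Among the tested members these codons made up 14.6% of the coding sequence at the median, from 6.56% in PSMG3 to 19.9% in PSMB2, against a median of 13.8% over 12736 tested protein-coding genes. The share of them that ends in C ran from 21.4% in PSMA1, an alpha subunit of the core, to 94.7% in PSMG4, a chaperone of core assembly. Its median was 51.3% in the members and 55.6% in all these genes, and 28 of 42 members lay below the latter. The stretches below show both extremes. They are the 30 codons of each gene with most codons of the 4 amino acids (codons 126 to 155 of PSMA1 and 81 to 110 of PSMG4, from the GENCODE release 44 representative transcripts), with those codons in capitals. PSMA1 lies on chromosome 11 (14504874 to 14643635, minus strand, hg38) and PSMG4 on chromosome 6 (3231403 to 3303373, plus strand).
PSMA1: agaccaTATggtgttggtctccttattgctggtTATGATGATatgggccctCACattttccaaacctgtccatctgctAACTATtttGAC
PSMG4: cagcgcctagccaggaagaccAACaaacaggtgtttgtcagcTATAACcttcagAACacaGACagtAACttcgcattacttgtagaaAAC
In the stretch of PSMA1, 3 of 8 such codons end in C, and in that of PSMG4 6 of 7 do.

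Libraries held 4023956 to 11398835 estimated counts, and mitochondrially encoded genes took 4.98% to 6.07% of them. On the first principal component (30.9% of the variance) 100Q replicate 2 stood apart, and on the second (22.7%) 100Q replicate 1 did. Of 7 genes listed as markers of the line, VIM was the highest, at means of 757 (0Q) and 710.3 (100Q) CPM (counts scaled to the size of the library). NEFM was at 187 and 168 CPM and CDH2 at 81.7 and 83.4 CPM. NEFL was at 110 and 96.6 CPM (log2 fold change -0.20, edgeR adjusted p = 0.987). PAX2 and LHX1 were low, at 4.99 and 4.04 CPM in 0Q against 6.88 and 6.07 CPM in 100Q (log2 fold changes 0.47 and 0.56, edgeR adjusted p = 0.9905 and 0.987). The intermediate filament gene INA had a log2 fold change of -0.32 (edgeR unadjusted p = 0.0175, adjusted p = 0.987). Of 6 blood cell markers, PTPRC, CD3E, LYZ and HBB were at 0 in all libraries; the list summed to 3.07 to 5.81 CPM in 0Q and 0 to 5.27 CPM in 100Q. Of 4 fibroblast markers, COL1A1 gave most of a sum of 25.8 to 30.9 CPM in 0Q and 29.2 to 33.6 CPM in 100Q. The part of these differences in the results was not tested.

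Of the 45 members, 42 had enough counts to test, with 84 to 2687 counts in each library. The others were PSMA8, the alpha subunit of the testis, PSMB11, the beta subunit of the thymus, and PSMD5, a chaperone of cap assembly. PSMA8 and PSMB11 had 0 counts in all 6 libraries, which allows up to 0.0689 CPM over the libraries together (3 counts; counting error only). The 0Q libraries held 0, 1 and 2 counts of PSMD5, and the 100Q libraries held 0, 11 and 4. The groups overlapped, and 11 of its 18 counts were in 100Q replicate 2, which stood apart on the first component. PSMD9 and PSMD10, the other chaperones of the cap in this set, were at 42.1 to 66.0 CPM and 73.0 to 94.5 CPM in the same libraries. PSMD5 (chromosome 9, 120815496 to 120842951, minus strand) overlaps the pseudogene CUTALP, which had 0 counts.

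No member passed the test between 100Q and 0Q. With the quasi-likelihood test of edgeR, 0 of 42 had a Benjamini-Hochberg adjusted p under 0.05 over 14905 genes (0.0134% of all tested genes passed). DESeq2 and limma-voom also called 0, where they called 0.0738% and 0.00671% of all tested genes. The smallest adjusted p of a member was 0.987. At an unadjusted p under 0.05 there was 1 member, PSME3, which was higher in 100Q. Of all tested genes 4.72% lay under that limit, 2.49% higher and 2.23% lower in 100Q. The groups did not overlap for 3 members (7.14%), 1 higher and 2 lower, and for 10.6% of all tested genes, 5.39% higher and 5.2% lower. The median log2 fold change of the members (100Q minus 0Q) was 0.01, with 22 higher and 20 lower, and that of all tested genes was -0.0027. Fold changes of the members ran from -0.16 to 0.18 on the log2 scale. Their SD of 0.09 lay close to their median SE of 0.09.

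**Figure D1:**
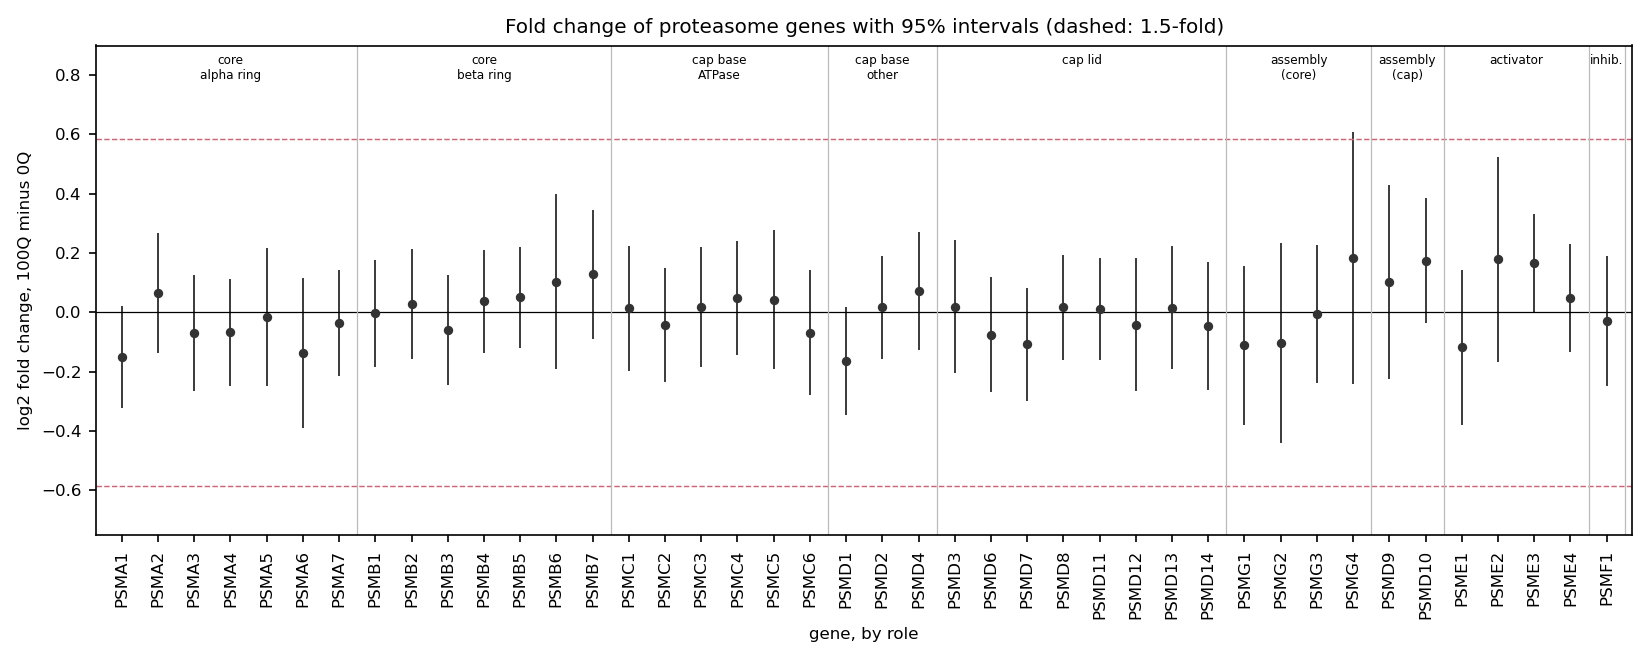
Log2 fold change (vertical axis, 100Q minus 0Q) of the 42 tested proteasome genes, ordered by role along the horizontal axis. Points are edgeR estimates, bars are 95% intervals and dashed lines mark a 1.5-fold change; the intervals of 41 genes lie between the dashed lines, and that of PSMG4 passes the upper one.

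The libraries bounded the changes more tightly than for most genes. The 95% interval of the fold change lay within 1.5-fold in either direction for 41 of 42 members (97.6%), against 58.2% of all tested genes and 92.7% of 7753 genes in the members' range of levels. The exception at 1.5-fold was PSMG4, whose interval reached 1.53-fold. In bulk RNA, fewer cells of a kind and less RNA per cell cannot be told apart.

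The core was examined first, since it is the part that cuts. Its 14 tested genes had a median log2 fold change of -0.0090, with 6 higher and 8 lower, and all 14 intervals lay within 1.5-fold. Together they made 1981, 1931 and 1963 CPM in 0Q, in the order of the replicate numbers, and 1974, 2019 and 1859 CPM in 100Q. The mean sums of 1958 ± 25.5 (0Q) and 1951 ± 82.5 CPM (100Q; SD, n = 3) came from overlapping groups. The lowest of the 6 sums was that of 100Q replicate 3, the deepest library, which was the lowest 100Q library for 12 of the 14 core genes.

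Among the alpha subunits, which form the gate, 6 of 7 had negative values, with a median of -0.07, and 100Q replicate 3 was the lowest 100Q library for all 7. PSMA1 was at 161, 149 and 167 CPM in 0Q and 144, 144 and 142 CPM in 100Q. All 100Q libraries lay below all 0Q libraries, but the interval of its log2 fold change (-0.15, 95% interval -0.32 to 0.02) held 0 (edgeR unadjusted p = 0.0833, adjusted p = 0.987). PSMA6 was at 103.99, 88.3 and 87.6 CPM in 0Q and 86.1, 99.2 and 72.0 CPM in 100Q (log2 fold change -0.14, -0.39 to 0.12), with overlap. Its counts and those of PSMA2 are uncertain, because a protein-coding readthrough gene on the same strand held 19.97% and 24.1% as many counts, respectively. PSMA7, another alpha subunit, was at 172, 158 and 151 CPM in 0Q and 165, 152 and 151 CPM in 100Q (-0.04, -0.22 to 0.14). The remaining alpha subunits lay between 81.8 and 220.4 CPM, with PSMA2 at 0.06 (-0.14 to 0.27), PSMA3 at -0.07 (-0.26 to 0.13), PSMA4 at -0.07 (-0.25 to 0.11) and PSMA5 at -0.01 (-0.25 to 0.22). PSMA3 overlaps its antisense RNA PSMA3-AS1, which held 37.8% as many counts.

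Among the beta subunits 5 of 7 had positive values, with a median of 0.04. PSMB5, which carries the chymotrypsin-like site, was among the steadiest members, at 134, 133 and 132 CPM in 0Q and 141, 139 and 134 CPM in 100Q. Its log2 fold change was 0.05 (95% interval -0.12 to 0.22). PSMB6, which carries the caspase-like site, was at 107, 81.9 and 79.5 CPM in 0Q and 87.2, 119 and 84.9 CPM in 100Q (0.10, -0.19 to 0.40). PSMB7, which carries the trypsin-like site, was at 115, 101 and 100.4 CPM in 0Q and 106, 133 and 109 CPM in 100Q (0.13, -0.09 to 0.35). For both, the highest library of each group was 0Q replicate 1 and 100Q replicate 2, and without 100Q replicate 2 PSMB6 had -0.06. The subunits without a cutting site lay between 121 and 252 CPM, the highest of them PSMB4: PSMB1 had -0.0035 (-0.18 to 0.18), PSMB2 0.03 (-0.16 to 0.21), PSMB3 -0.06 (-0.24 to 0.13) and PSMB4 0.04 (-0.14 to 0.21). The mean log2 level of the alpha ring minus that of the beta ring was -0.27, -0.11 and -0.06 in 0Q and -0.17, -0.30 and -0.27 in 100Q, so the groups overlapped.

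**Figure D2:**
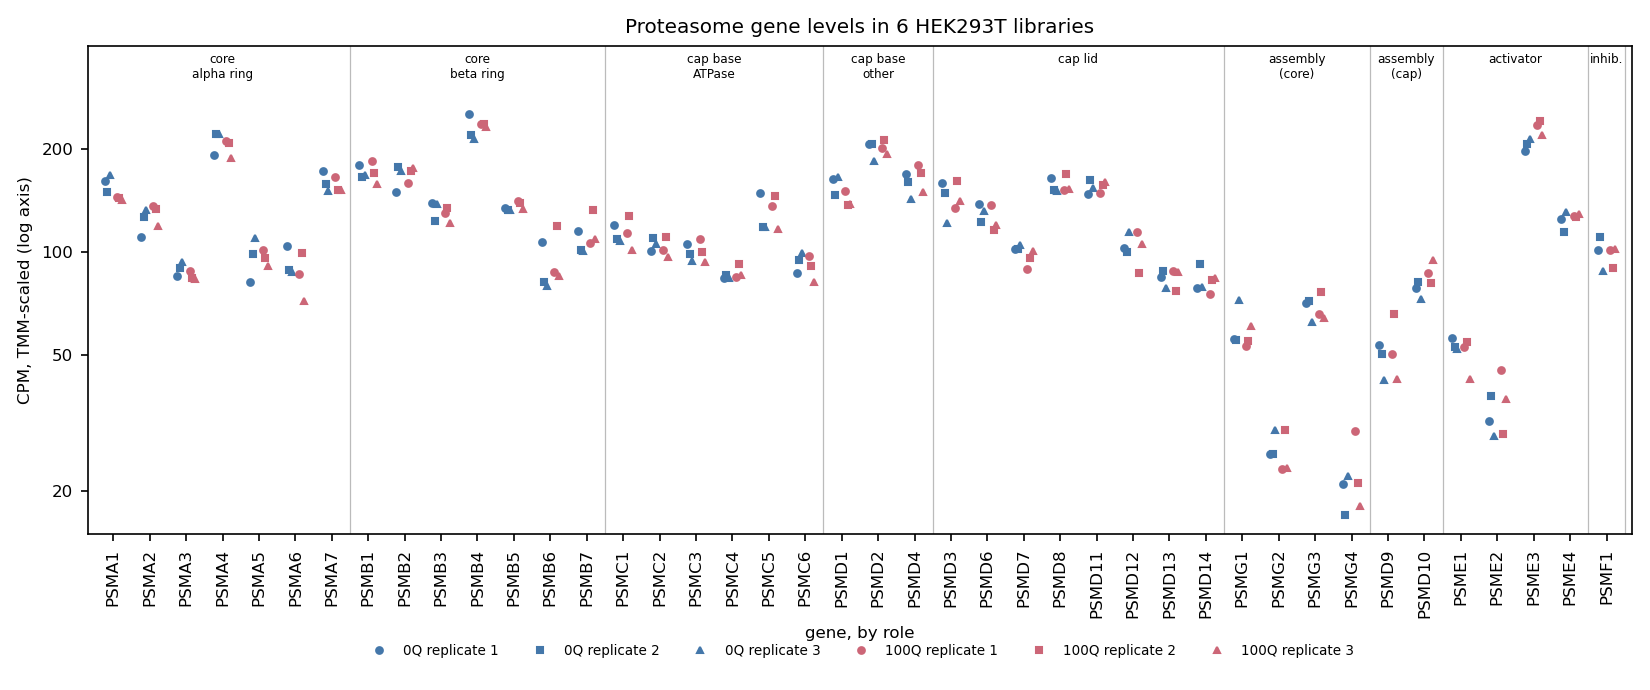
Level of each tested proteasome gene in CPM (vertical axis, log scale) by role (horizontal axis), 1 symbol for each of the 6 libraries, blue for 0Q and red for 100Q. Symbols of the groups interleave for 39 of the 42 genes, and PSMA1, PSMD7 and PSME3 are those whose groups do not overlap.

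The cap genes lay equally close to 0. Their 17 members, all tested, had a median log2 fold change of 0.01, with 10 higher and 7 lower, and each interval lay within 1.5-fold. Sums were 2159, 2093 and 2033 CPM in 0Q and 2108, 2127 and 2004 CPM in 100Q (2095 ± 63.2 and 2079.9 ± 66.4 CPM; SD, n = 3), which overlapped. The 6 ATPases that unfold the substrate, PSMC1 to PSMC6, ran from -0.07 (PSMC6) to 0.05 (PSMC4). PSMC4 was at 83.9, 85.4 and 83.6 CPM in 0Q and 84.5, 91.9 and 85.7 CPM in 100Q. Of the others, PSMC1 had 0.01 (-0.20 to 0.22), PSMC2 -0.04 (-0.24 to 0.15), PSMC3 0.02 (-0.18 to 0.22) and PSMC5 0.04 (-0.19 to 0.28). PSMC2 is uncertain, because it overlaps PMPCB on the same strand and DNAJC2 on the other, with 115% and 63.1% as many counts. PSMC5 and PSMC1 overlap opposite-strand genes with 66.1% and 28.1%.

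PSMD1, the large scaffold of the base, had the lowest log2 fold change of the set. It was at 164, 146 and 165 CPM in 0Q and 149.99, 137 and 138 CPM in 100Q, so 1 library of 0Q lay inside the 100Q range (-0.16, -0.35 to 0.02; edgeR unadjusted p = 0.0738, adjusted p = 0.987). Its partner scaffold PSMD2 had 0.02 (-0.16 to 0.19), and PSMD4, a ubiquitin receptor, 0.07 (-0.13 to 0.27). In the lid, PSMD14, the enzyme that removes ubiquitin, was at 78.2, 91.9 and 79.1 CPM in 0Q and 75.1, 82.6 and 83.7 CPM in 100Q (-0.04, -0.26 to 0.17). PSMD7, its inactive partner, was at 102, 102 and 105 CPM in 0Q and 89.0, 95.9 and 100.8 CPM in 100Q. Those groups did not overlap, and its interval held 0 (-0.11, -0.30 to 0.08; edgeR unadjusted p = 0.245, adjusted p = 0.989). PSMD7 overlaps a noncoding RNA on the other strand, which held 10.8% as many counts. The lid scaffolds PSMD3, PSMD6, PSMD8, PSMD11, PSMD12 and PSMD13 had 0.02 (-0.21 to 0.24), -0.07 (-0.27 to 0.12), 0.02 (-0.16 to 0.19), 0.0099 (-0.16 to 0.18), -0.04 (-0.27 to 0.18) and 0.02 (-0.19 to 0.22). The 8 lid genes had a median of -0.02, with 4 higher and 4 lower.

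Assembly genes had wider intervals than core or cap genes, with a median SE of 0.14 against 0.09 in both. The median log2 fold change of the 6 tested members was 0.05, with 3 higher and 3 lower, and 5 intervals lay within 1.5-fold. Sums were 306, 302 and 302 CPM in 0Q and 309, 329 and 303 CPM in 100Q. They overlapped only because 100Q replicate 3 lay below 0Q replicate 1. Per kilobase of transcript, scaled to the same sum in every library, they were 470, 467 and 489 in 0Q and 513, 497 and 499 in 100Q, without overlap. On that scale the ratio of 100Q to 0Q means was 1.058 for assembly, 1.019 for core and 1.018 for cap genes. In CPM these ratios were 1.035, 0.996 and 0.993, so each class shared the rise. Core and cap sums overlapped on both scales. The cap chaperones PSMD9 and PSMD10 summed to 132, 132 and 115 CPM in 0Q and 137, 147 and 137 CPM in 100Q, without overlap. Sums of the core chaperones overlapped, and none of these sums was tested. Taken singly, 10.6% of all tested genes had groups without overlap. The core chaperones PSMG1, PSMG2, PSMG3 and PSMG4 had -0.11, -0.10, -0.0045 and 0.18. PSMG4 was at 21.1, 17.1 and 22.2 CPM in 0Q and 30.04, 21.1 and 18.1 CPM in 100Q. Its groups overlapped, 100Q replicate 1 was high, and without that library its value was -0.05. PSMG4 and PSMG2 are uncertain: opposite-strand genes overlapping their annotated spans (TUBB2B for PSMG4, SPIRE1 for PSMG2) held 872% and 118% as many counts, and the strand setting of the counting is not given. PSMD10, a cap chaperone also known as gankyrin, was at 78.6, 81.5 and 73.0 CPM in 0Q and 86.4, 80.9 and 94.5 CPM in 100Q (0.17, -0.04 to 0.38; edgeR unadjusted p = 0.0964, adjusted p = 0.987). PSMD9, which also assists the base, had 0.10 (-0.23 to 0.43), and -0.08 without 100Q replicate 2.

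**Figure D3:**
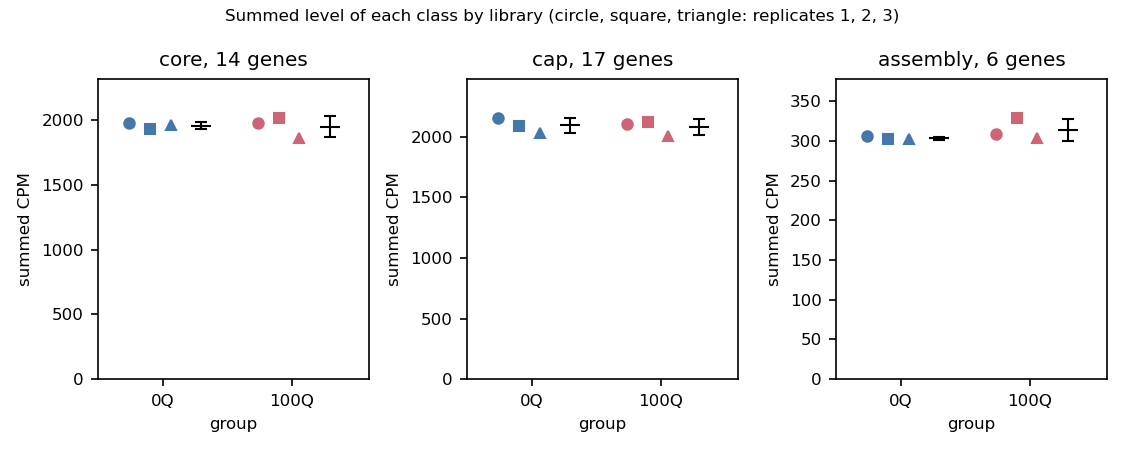
Summed CPM of the tested core, cap and assembly genes (vertical axes, from 0) in 0Q and 100Q (horizontal axes). Symbols are replicates 1 to 3 and black bars are the mean ± SD. In each panel the 0Q and 100Q libraries overlap, for assembly only through 100Q replicate 3.

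The classes were also set against each other. The mean log2 level of core minus cap genes was 0.16 ± 0.04 in 0Q and 0.17 ± 0.04 in 100Q (SD, n = 3), and these groups overlapped. That of assembly minus core genes was -1.56, -1.58 and -1.54 in 0Q and -1.52, -1.50 and -1.54 in 100Q. These groups lay apart by less than 0.01 between their nearest libraries, with 100Q higher by 0.05 at the means. The assembly mean includes PSMG4 and PSMG2, whose counts are uncertain. Among single genes, the groups did not overlap for 10.6% of all tested genes. Assembly minus cap genes gave -1.42, -1.44 and -1.34 in 0Q and -1.35, -1.28 and -1.40 in 100Q, which overlapped. No test was run on these means, because the members were chosen with earlier results of these data known.

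The other activators and the inhibitor held the 1 member at an unadjusted p under 0.05. PSME3 encodes an activator that opens the core in the nucleus without ubiquitin. It was at 197, 206 and 214 CPM in 0Q and 234, 241 and 219 CPM in 100Q (206 ± 8.45 and 231 ± 11.4 CPM; SD, n = 3). All 100Q libraries lay above all 0Q libraries, 1.12-fold at the means of the fit (log2 fold change 0.17 ± 0.08, SE), and it did not pass over all genes (edgeR unadjusted p = 0.0479, adjusted p = 0.987). Leaving out 1 library at a time gave log2 fold changes of 0.13 to 0.21 and unadjusted p of 0.0294 to 0.137 with edgeR. PSME3 (chromosome 17, 42824385 to 42843760, plus strand) overlaps BECN1 on the other strand, which held 26.1% as many counts. PSME1 and PSME2, the interferon-inducible activator pair, had -0.12 (-0.38 to 0.14) and 0.18 (-0.17 to 0.52), and both are uncertain, since opposite-strand genes (EMC9 and RNF31) held 39.9% and 97.2% as many counts. PSME4 had 0.05 (-0.13 to 0.23) and the inhibitor PSMF1 -0.03 (-0.25 to 0.19).

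Levels were also compared between genes, per length, as counts per kilobase scaled to the same sum over protein-coding genes in every library. Per kilobase of the representative transcript, the median of the tested members was 129, against 21.4 for tested protein-coding genes, and core genes ran from 59.3 (PSMA5) to 591 (PSMB4), 9.96-fold apart. The low core genes PSMA4, PSMA5 and PSMB2 have transcripts of 4378, 3815 and 4426 bases with coding sequences of 783, 723 and 603 bases. Per kilobase of coding sequence, a length chosen after the data were seen, core genes lay within 2.56-fold of each other (125 in PSMA3 to 321 in PSMB4). The counts still covered the whole gene, so genes with much sequence outside the coding part rose on this scale. PSMB2 went from 88.7 to 305, whereas PSMA3 went from 214 to 125. The part of this mismatch in the narrower range was not tested. The 6 ATPases lay within 1.56-fold (75.1 in PSMC4 to 117 in PSMC5) and the 8 lid genes within 2.00-fold. On that scale the medians were 204 for core, 93.9 for cap and 78.9 for assembly genes. The order of the members moved with the choice of length (Spearman's rho 0.582 between both scales, across 42 genes) and little between the groups (rho 0.994 between the means of 0Q and 100Q).

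**Figure D4:**
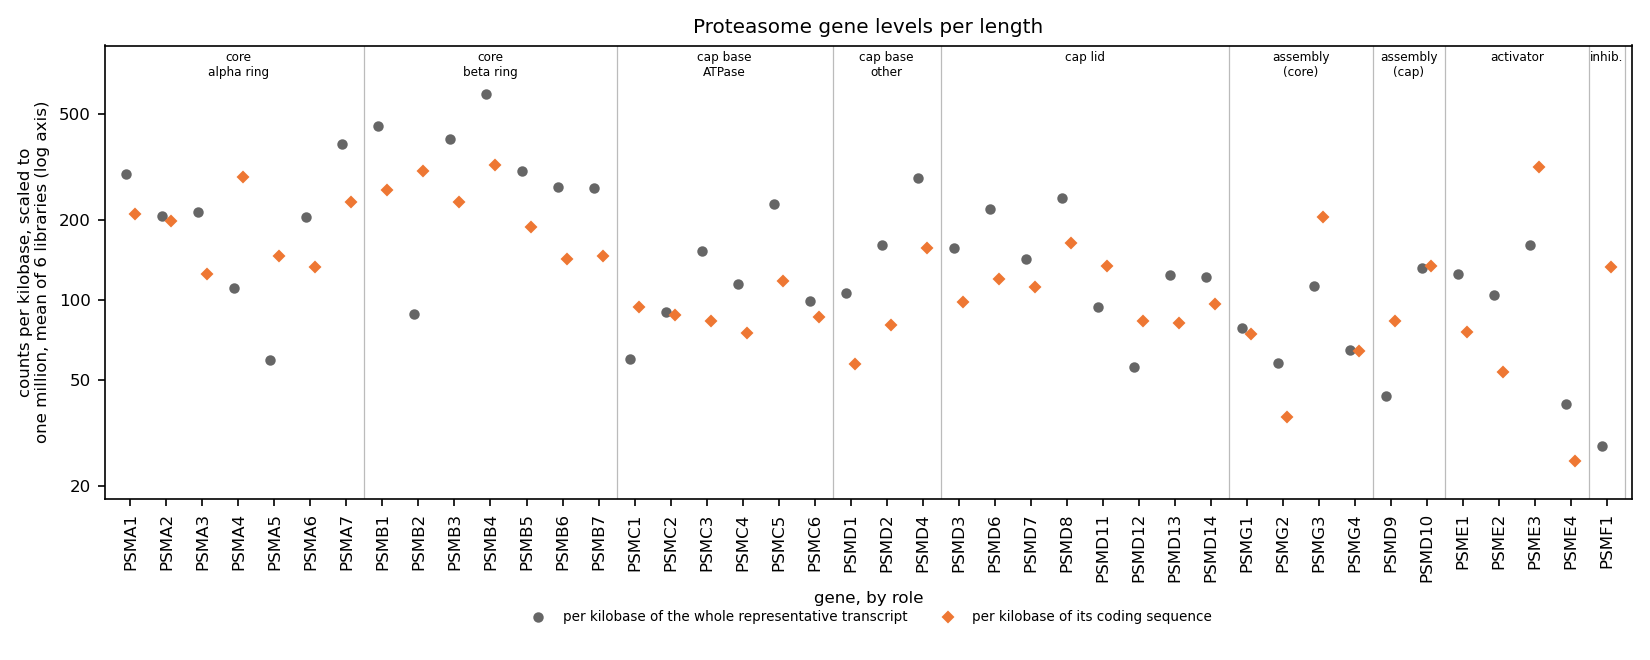
Mean level over 6 libraries (vertical axis, counts per kilobase scaled to the same sum in every library, log scale) of each tested proteasome gene by role. Grey circles divide by the whole transcript and orange diamonds by its coding sequence, both from counts over the whole gene. On the coding scale the core genes sit between 125 and 321 and the 6 ATPases between 75.1 and 117.

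Across the 42 members, the C-ending share of the codons read by queuosine tRNAs and the log2 fold change had a Pearson correlation of 0.391 (Spearman's rho 0.366). These points share the same libraries and differ in base composition, and the value is a description. PSMG4, whose counts are uncertain, had both the highest C-ending share and the highest log2 fold change. No correlation without PSMG4 is given here. For phenylalanine and cysteine, whose codons queuosine tRNAs do not read, the C-ending share gave 0.379 across the same members, and both shares were themselves correlated at 0.687. Over 12735 tested protein-coding genes the first correlation was 0.0974. In the members it moved with single libraries, to 0.135 (rho 0.0050) when 0Q replicate 3 was left out and 0.565 (rho 0.559) when 0Q replicate 1 was. Without 100Q replicate 2 it was 0.205 (rho 0.184). Without 100Q replicate 1, the library in which PSMG4 was high, it was 0.311 (rho 0.338).

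**Figure D5:**
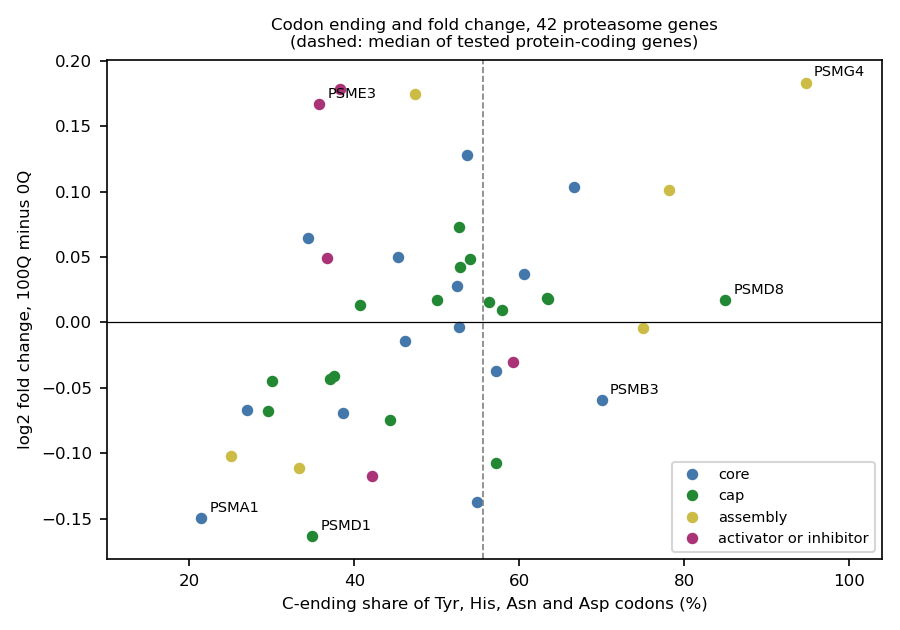
Share of tyrosine, histidine, asparagine and aspartate codons that end in C (horizontal axis, %) against the log2 fold change (vertical axis, 100Q minus 0Q), 1 point for each of 42 proteasome genes, coloured by class. The dashed line is the median share of tested protein-coding genes (55.6%), with 28 members to its left; PSMA1 at 21.4% and PSMG4 at 94.7% are the ends of the range.

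Promoters of the members were read for a pair of motifs, since proteasome genes are known to be induced together through antioxidant response elements bound by NFE2L1. RefSeq windows (GRCh38.p14, 250 bases before to 50 after the start) matched 39 of 45 members, 7 of them with several windows. The element core TGACNNNGC, on either strand, was in 14 of 39 members (35.9%) and in 16.1% of all 27305 genes with windows. By window it was in 29.8% of member windows and 13.3% of all windows. The 27305 genes outnumber the 20044 protein-coding genes of the counts, so they include other kinds of gene. They were not matched to the members in type or level. CCAAT was in 19 members (48.7%) and in 39.7% of genes, or in 40.4% of member windows and 34.6% of all windows. By class, TGACNNNGC was in 2 of 12 core, 5 of 16 cap, 4 of 6 assembly and 3 of 5 other genes. Stretches of 3 members are shown, the 150 bases before the start, with matches to either motif in capitals and no overlap between them: PSMB3 for a core gene with both motifs, PSMD3 for a lid gene, and PSMD5 for the member that was nearly silent here.
PSMB3, chr17:38752591-38752740, plus strand: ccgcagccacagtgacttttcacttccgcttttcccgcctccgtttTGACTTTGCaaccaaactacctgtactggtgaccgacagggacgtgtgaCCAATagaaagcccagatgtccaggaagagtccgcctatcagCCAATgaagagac
PSMD3, chr17:39980657-39980806, plus strand: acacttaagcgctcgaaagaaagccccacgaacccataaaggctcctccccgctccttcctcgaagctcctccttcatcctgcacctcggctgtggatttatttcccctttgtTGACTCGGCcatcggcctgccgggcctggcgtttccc
PSMD5, chr9:120842923-120843072, minus strand: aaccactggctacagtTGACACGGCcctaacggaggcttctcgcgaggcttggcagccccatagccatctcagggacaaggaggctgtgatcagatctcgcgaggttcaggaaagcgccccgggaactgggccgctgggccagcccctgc
PSMB3 was at 139, 123 and 138 CPM in 0Q and 129.8, 134 and 121 CPM in 100Q, and PSMD3 at 159, 149 and 121 CPM in 0Q and 134, 160.5 and 140.3 CPM in 100Q, both with overlap. A match in PSMD5 thus stood beside 18 counts in all, and those in PSMB3 and PSMD3 beside over 100 CPM. Other members with TGACNNNGC had lower levels, such as PSMG2 at 23.3 to 30.2 CPM. A match is a description of the letters, not of binding.

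The rest of the pathway was read from lists of genes outside the symbol rule. None of their 32 tested members passed over all genes with edgeR. In the transcription list, 5 of 8 were higher and 3 lower (median 0.04). It holds NFE2L1, NFE2L2, DDI2, NGLY1, VCP, UFD1, NPLOC4 and AKIRIN2. NFE2L2, the related stress factor, was at 65.7, 74.7 and 69.7 CPM in 0Q and 55.5, 53.0 and 67.9 CPM in 100Q, with overlap (-0.24, -0.49 to 0.01; edgeR adjusted p = 0.987). DDI2, the protease that activates NFE2L1, had 0.15 (-0.08 to 0.37). NFE2L1 itself, named after its values were seen, had -0.04 (-0.23 to 0.16).

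Partners that bind or build the proteasome had a median of -0.00097 over 11 tested genes, among them UCHL5, a cap deubiquitinase, at -0.14 (-0.33 to 0.06) and PAAF1, a cap chaperone, at 0.23 (-0.13 to 0.59). Of 5 tested shuttle proteins that carry ubiquitinated substrates, 4 were lower (median -0.08). RAD23B was at 213, 209 and 225 CPM in 0Q and 194, 196 and 193 CPM in 100Q, without overlap (-0.15, -0.31 to 0.01; edgeR unadjusted p = 0.0605, adjusted p = 0.987), and UBQLN2 had -0.17 (-0.42 to 0.09). The list of ubiquitin genes and activating enzymes held 4 ubiquitin genes, UBA1 and UBA6, which activate ubiquitin, and UBA3, which belongs to the activating enzyme of the related protein NEDD8. All 7 had negative values (median -0.07), where 50.6% of all tested genes were negative. Sums over the 7, UBA3 included, were 3364, 3204 and 3208 CPM in 0Q and 3117, 3172 and 3004 CPM in 100Q, which did not overlap, with UBA6 at -0.17 (-0.43 to 0.10) and UBB at -0.08 (-0.23 to 0.07).

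Of the immunoproteasome subunits, PSMB10 was low but had counts in all 6 libraries, and PSMB8 and PSMB9 had at most 10 counts in a library. PSMB10 had mean levels of 8.27 ± 1.248 (0Q) and 7.75 ± 1.77 CPM (100Q; SD, n = 3; log2 fold change -0.07, -0.70 to 0.56). Counts of PSMB8 were 4, 0 and 2 (0Q), then 0, 0 and 3 (100Q), and those of PSMB9 were 0, 10 and 0, then 1, 0 and 2. The constitutive subunits that they replace, PSMB5, PSMB6 and PSMB7, were at 79.5 to 141 CPM in the same libraries.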

How the data were processed

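Messenger RNA libraries of 3 queuine-depleted and 3 queuine-supplemented samples were grouped by their titles. The values the authors deposited are raw estimated counts per Ensembl gene. FastQC, STAR and RSEM are named, without versions, per the submitters' processing notes, and hg38 per the series design. The annotation, the strand setting and any use of molecular identifiers: not given in the sources used here. Thus counting intervals and floors cover counting error only. Estimated counts were rounded and tested over the whole table with edgeR 4.0.16 (quasi-likelihood, TMM, minimum count 10, Benjamini-Hochberg) in R 4.3.3. CPM are relative to the TMM-scaled library. Names, coordinates and coding sequences came from GENCODE release 44, which matched 62541 of 63086 identifiers. Members and lists were chosen with earlier results of these data known. Every member was named, and of each other list the genes with unadjusted p under 0.05, or else the 2 with the smallest p. No list was given a set test. Same-numbered replicates deviated together with correlations of 0.0014, -0.02 and 0.08, so the numbers were not taken as pairs. Alternatives included DESeq2 1.42.0, limma-voom (limma 3.58.1) and leaving out each library. On data simulated from the means of the 14905 tested genes, edgeR recovered 50% of 1.5-fold and 88% of 2-fold changes. These were placed in 50 genes per fold, only above a minimum level, and 9 of 174 calls were wrong. The simulated spread followed the trend over levels, without differences between genes of like level, so recovery in the real data may be lower. Of 45 members, 17 held fractional counts, and 13 overlapped a gene with over 10% as many counts. Of the members' processed pseudogenes, PSMC1P1 had 329 counts, 6.84% of those of PSMC1.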

Additional observations from a re-analysis of the deposited data

How the results depend on the processing

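No proteasome gene passed in any of the 13 alternatives, and the smallest adjusted p of a member was 0.775 (edgeR, without 100Q replicate 3). Of 546 values of single members, 538 moved by less than 1 SE, but 26 of 42 members changed sign somewhere, so the direction of most members is not settled. Over all genes the 2 calls became 71 with no filter on low counts, 1 with the stricter filter, 11 with DESeq2 and 1 with limma-voom, and 0 to 6 without single libraries. Members at an unadjusted p under 0.05 numbered 0 with no filter or with the replicate block, which called 3 genes in all, and 0 to 1 without single libraries, where PSMD1 replaced PSME3 without 0Q replicate 2. Leaving out a library moved the median of core genes from -0.06 to 0.01, of cap genes from -0.0326 to 0.0219 and of assembly genes from -0.0795 to 0.0964. The latter 2 lows came without 100Q replicate 2. The range of core levels was 8.15-fold with merged exons and 2.56-fold with coding length, and that of cap levels 5.64-fold and 2.84-fold, where they were 9.96-fold and 5.13-fold with the whole transcript. Within 150 bases upstream, TGACNNNGC was in 9 of 39 members (23.1%; 8.94% of all genes) and CCAAT in 12 (30.8%, near the 27.8% of all genes). Without the 13 members that overlap a gene with over 10% as many counts, medians were -0.0035, 0.02 and 0.05 for core, cap and assembly. That alternative was chosen after the data were seen. Depth left PSMD5, PSMA8 and PSMB11 untested, and SEs reached 0.20 in PSMG4 and 0.16 in PSME2 and PSMG2.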
